A study of Mus musculus with 16 samples.

Results

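The comparison was that of C57BL/6 mice with a stroke against naive C57BL/6 mice. It holds 8 of the 16 arrays of the series: 4 from brains taken 24 h after the middle cerebral artery had been permanently occluded (the stroke arrays) and 4 from brains of naive mice (the naive arrays), chosen by their labels. All mice were male, 8 weeks old and of the C57BL/6 strain, and RNA came from whole brain tissue, read on Affymetrix Mouse Gene 1.0 ST arrays with 1 array per sample. The other 8 arrays, labelled TNF knockout and likewise naive or taken 24 h after the occlusion, entered the pooled estimate of the spread and a closing side-by-side comparison. Every tested gene is a member of the comparison: 19938 genes of 19938, each read by the probe set with the highest mean over the 16 arrays. No sham surgery was part of the naive group, so surgery and occlusion cannot be told apart in the stroke arrays. Nothing in the labels ties each array to an animal of its own, so the p-values measure the spread between these samples, which may be technical.

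Permanent occlusion of the middle cerebral artery cuts the blood supply to a large part of the lateral cortex and striatum of one hemisphere, and the deprived core dies within hours while the surrounding tissue survives under stress. Dying cells release proteins, nucleic acids and ATP that are sensed by microglia, the resident macrophages of the brain, and by astrocytes. Within a day these cells make chemokines, complement and acute-phase proteins, the vessel wall is activated and neutrophils and monocytes begin to enter. In RNA of bulk tissue, fewer cells of a type and less RNA per cell cannot be told apart.

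Levels below are the authors' log2 values, so a difference of 1 is a 2-fold difference. Changes are stroke minus naive with the standard error (SE) of the fit across all genes, and means carry the SD of 4 arrays. Array medians lay between 6.01 and 6.05, and arrays of a C57BL/6 group correlated at 0.991 to 0.994. A level near 3 to 4 lies far below the array medians, and whether such a probe set stood above background is unknown, as no detection p-values were at hand.

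Before any result, some of the 8 arrays differed from the rest in transcripts of single brain regions. These transcripts were looked up after the values had been seen and lie outside the rule for naming genes. The first naive array was high in cerebellar transcripts. Gabra6, a GABA receptor subunit of cerebellar granule cells, read 4.41, 4.12, 4.08 and 4.88 in the stroke arrays, against 7.99, 4.48, 4.28 and 4.0 in the naive arrays. The mean of 17 cerebellar markers was 6.26 to 6.46 in the stroke arrays, against 7.35 in the first naive array and 6.32 to 6.37 in the other naive arrays, and 15 of the 17 were highest in that array. The first stroke array was high in transcripts of the hindbrain and raphe. Slc6a5, the glycine transporter of hindbrain interneurons, read 7.92, 5.83, 5.43 and 6.25 in the stroke arrays, against 5.93, 5.95, 6.07 and 5.01 in the naive arrays. The mean of 14 hindbrain and raphe markers was 5.81 in the first stroke array and 4.96 to 5.23 in the other stroke arrays, against 5.09 to 5.53 in the naive arrays. Of the 14, 8 were highest in the first stroke array, and the Hox genes Hoxa4, Hoxb3, Hoxb5 and Hoxb6 were among those that were not. The second stroke array was low in 9 markers of midbrain dopamine neurons, with a mean of 5.84, against 6.42 to 6.51 in the other stroke arrays and 6.17 to 6.53 in the naive arrays. Means of 8 olfactory bulb markers ran from 5.57 to 5.91 in the stroke arrays. In the naive arrays they ran from 5.32 in the second to 5.98 in the fourth. Means of 8 cortical markers differed little, at 8.98 to 9.10 in the stroke arrays and 9.02 to 9.07 in the naive arrays. The part of these differences in the results was not tested. The counts of some lists are also given without both first arrays, those high in cerebellar or in hindbrain and raphe transcripts. The counts without the second stroke array stand with those of the other arrays.

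**Figure D1:**
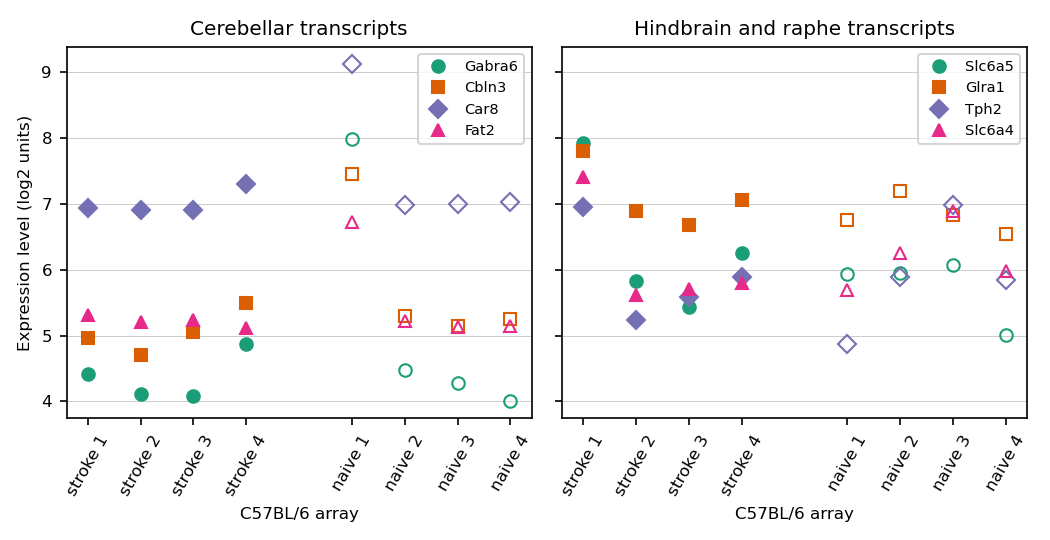
Levels (log2 units, vertical axis) of 4 cerebellar and 4 hindbrain or raphe transcripts in each C57BL/6 array (horizontal axis; filled symbols stroke, open symbols naive; no group means are drawn). The first naive array is highest for all 4 cerebellar transcripts, with Car8 at 9.13, and the first stroke array is highest for Slc6a5, Glra1 and Slc6a4 (7.41), while Tph2 reads 6.96 there and 6.99 in the third naive array.

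Tnf, the gene named in the series' other genotype, read 5.64, 5.28, 5.67 and 5.68 in the stroke arrays, against 5.01, 5.72, 5.08 and 5.41 in the naive arrays. The groups overlapped, and the change of 0.26 ± 0.14 (SE) did not pass the threshold (limma, adjusted p = 0.35). In the arrays labelled TNF knockout Tnf read 6.75, 6.60, 6.99 and 6.88 after stroke and 6.14, 6.46, 6.47 and 6.58 in naive mice, all above every C57BL/6 array. This goes against that label, and where the probe set lies relative to the deletion is not known here, so it may check nothing. These samples are called the arrays labelled TNF knockout throughout.

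Of the 19938 genes, 334 passed an adjusted p of 0.05 between stroke and naive C57BL/6 brain (limma, Benjamini-Hochberg), which is 1.68 percent of those tested. Of these, 267 were higher after stroke (1.34 percent) and 67 were lower (0.336 percent). The increases were larger than the decreases: 24 genes were at least 2-fold higher (0.12 percent) and none was 2-fold lower. A further 65 rose 1.5-fold to 2-fold and 178 by less. Only 4 genes fell by at least 1.5-fold, namely Pltp, Npas4, Camkk2 and Rnf148, and 63 fell by less. In 252 of the 267 genes that rose, all 4 stroke arrays lay above all 4 naive arrays, as they did for 5.03 percent of all genes. In 61 of the 67 that fell, all stroke arrays lay below all naive arrays, as for 3.23 percent of all genes. The median change over all genes was -0.005, with 48.3 percent of changes positive and 51.4 percent negative.

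How often a gene passed when an array was left out differed by the size of its change. Of the 24 genes with at least a 2-fold rise, 23 passed in all 8 fits that left out 1 of the compared arrays, and all 24 passed without both first arrays. Of the 65 with a rise of 1.5-fold to 2-fold, 43 passed in all 8 fits. Of the 178 smaller rises 17 did, and 136 passed in 4 of the 8 fits or fewer. Of the 67 genes that fell, 5 passed in all 8 fits: Pltp, Camkk2, Slc30a3, Unc13a and Hunk. The count of calls moved with single arrays. It was 639 without the first stroke array and 167, 107 and 182 without the second, the third and the fourth. It was 139, 177, 192 and 227 without the first, the second, the third and the fourth naive array, and 214 without the second naive array labelled TNF knockout, which adds only to the pooled spread. Without both first arrays 420 genes passed (2.11 percent), 296 higher and 124 lower, of which 241 were among the 334.

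**Figure D2:**
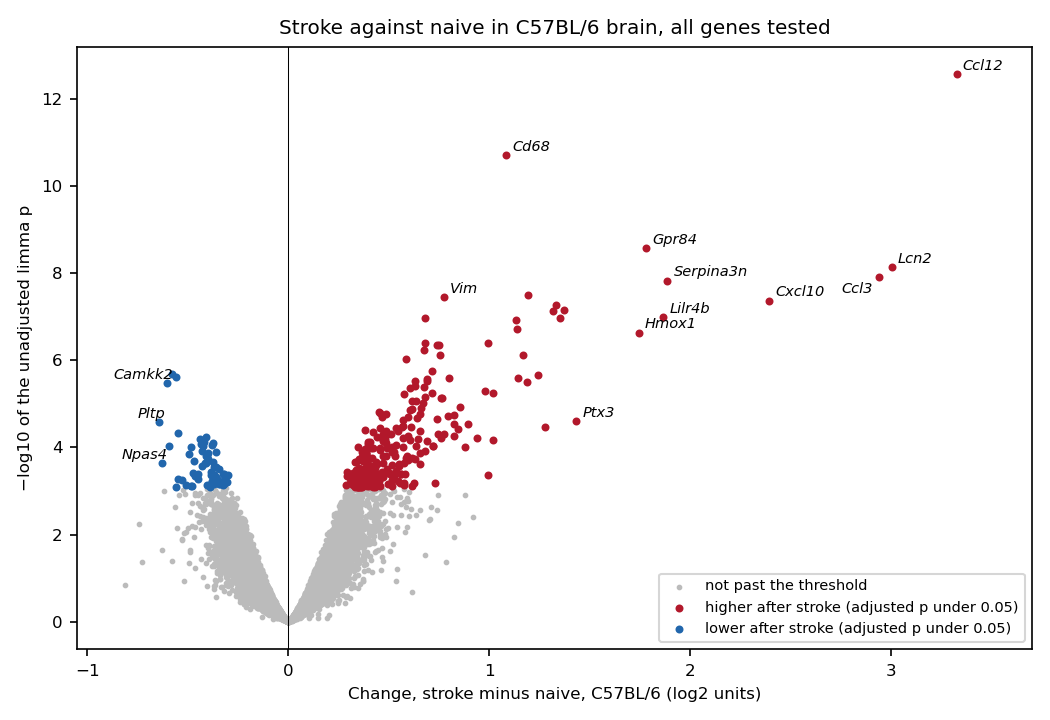
Change in C57BL/6 brain (stroke minus naive, log2 units, horizontal axis) against -log10 of the unadjusted limma p (vertical axis), a point per gene. The genes past the threshold reach 3.33 on the side of increases (Ccl12) and -0.64 on the side of decreases (Pltp).

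Chemokines, the secreted proteins that draw leukocytes along a gradient, held the largest change. Ccl12, a mouse monocyte attractant that acts through the receptor CCR2, read 7.56, 8.30, 8.64 and 7.62 in the stroke arrays, against 4.90, 4.29, 5.04 and 4.59 in the naive arrays. It was higher in every stroke array than in any naive array, 10-fold on average (3.33 ± 0.19, adjusted p = 5.5e-09). Ccl3, an attractant of monocytes and T cells, read 7.09, 7.96, 8.71 and 7.55 after stroke, against 4.77, 4.96, 4.49 and 5.34 in naive mice. Its groups did not overlap, and it rose 7.66-fold (2.94 ± 0.31, adjusted p = 4.9e-05). Cxcl10, an interferon-induced ligand of CXCR3 on T cells, read 8.19, 6.51, 7.28 and 7.21 after stroke, against 5.11, 4.70, 4.90 and 4.91 in naive mice. It rose 5.25-fold (2.39 ± 0.28, adjusted p = 9.5e-05), and its highest reading came from the first stroke array, which was the lowest for Ccl12 and Ccl3.

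Of 30 chemokine ligands measured, 6 rose and none fell (20 percent, against 1.34 percent of all genes that rose; median change 0.09). The others that rose were Ccl9 (0.68 ± 0.14, adjusted p = 0.018), Ccl2 (0.61 ± 0.15, adjusted p = 0.048) and Ccl6 (0.50 ± 0.12, adjusted p = 0.046), which passed in 4, 2 and 0 of the 8 fits that left out a compared array. Cxcl2, which attracts neutrophils through CXCR2, read 4.42, 5.10, 5.64 and 4.46 after stroke, against 4.14, 4.06, 4.52 and 4.11 in naive mice. Its groups overlapped and it did not pass (0.70 ± 0.22, adjusted p = 0.12). Of 21 chemokine receptors none passed (median 0.05). The nearest by p was Cxcr4 at 0.46 (adjusted p = 0.062). Without both first arrays 5 of the 30 ligands and 1 of the 21 receptors passed, and 3 ligands passed without the second or the third stroke array or without the first or the second naive array.

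**Figure D3:**
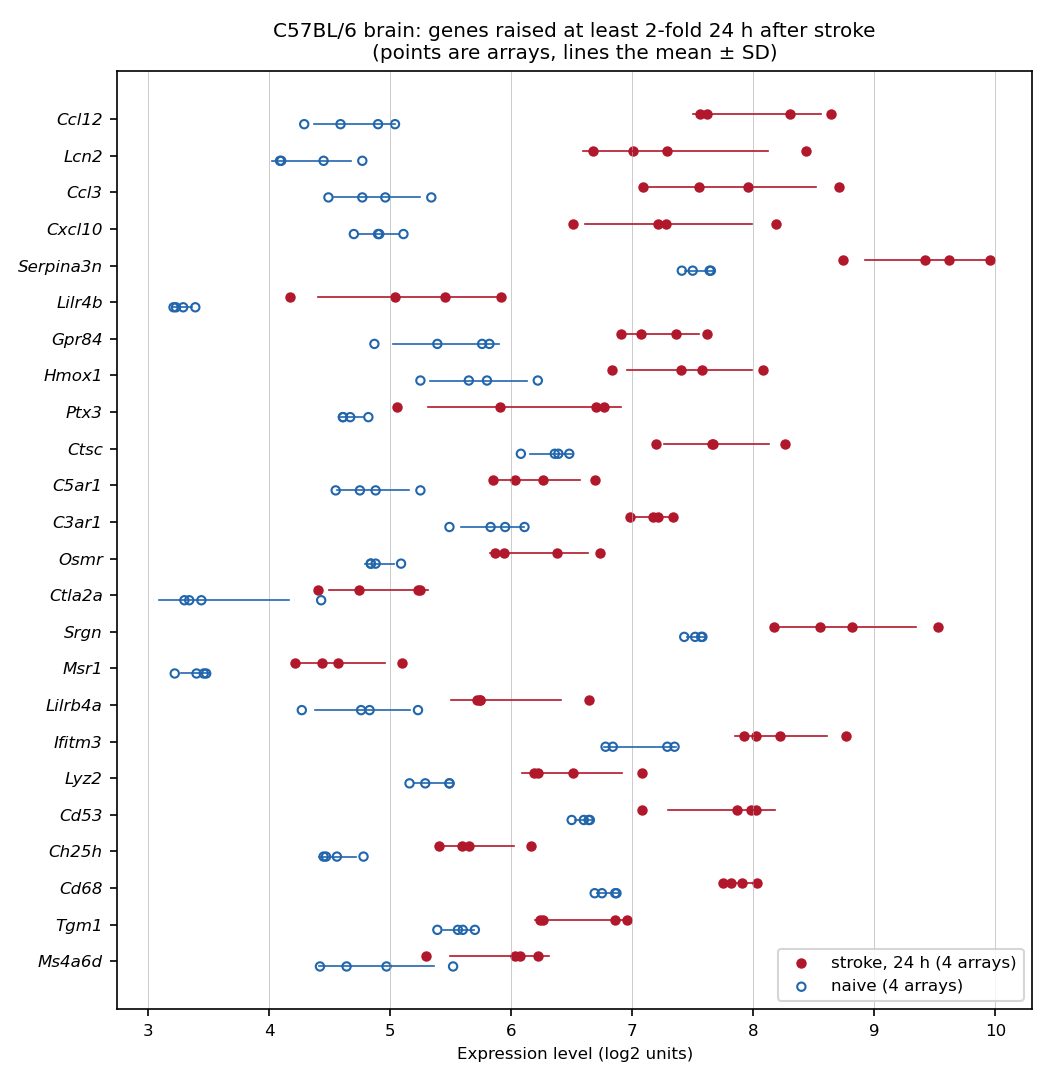
Level (log2 units, horizontal axis) of the 24 genes that rose at least 2-fold, with a point for each array, filled for stroke and open for naive, and a line for the mean ± SD of 4 arrays. All 4 stroke arrays lie above all 4 naive arrays except for Ctla2a and Ms4a6d, where the groups overlap.

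Across these 24 genes the stroke arrays often stood in one order. The first stroke array was the lowest of the 4 in 19 genes and the third the highest in 20, while each naive array was the highest in 4 to 7. The first stroke array is also the one with high hindbrain transcripts and had the lowest array weight in limma, 0.509. Without that array 639 genes passed, against 334 with it. Why it differed was not tested.

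The 250 bases before the transcription start of the strongly raised genes were searched, on both strands, for short motifs of factors known to act in inflamed tissue. The motifs were NF-kB (GGG, any 2 bases and TTTCC, or GGGANTTCC), AP-1 (TGANTCA), an interferon response element (GAAA, any 2 bases and GAAA), C/EBP (TTGCNNAA) and STAT (TTCCNGGAA). Sequences came from RefSeq (GRCm38.p6), which gave a promoter for 15563 of the tested genes and for 20 of the 24. An NF-kB motif stood in 3 of the 20 (15 percent), in 14 of 207 genes that rose (6.76 percent), in 1 of 51 that fell (1.96 percent) and in 2.76 percent of all 15563. The AP-1 motif stood in 5 of the 20 (25 percent), in 5.8 percent of the 207, in 1.96 percent of the 51 and in 6.05 percent of all. The C/EBP motif stood in 4 of the 20 (20 percent), in 6.76 percent of the 207, in 11.8 percent of the 51 that fell and in 8.68 percent of all. The interferon response element stood in 2 of the 20 (10 percent), in 5.8 percent of the 207, in 5.88 percent of the 51 and in 2.92 percent of all. The STAT motif stood in 0 of the 20, in 1.45 percent of the 207, in 0 of the 51 and in 0.97 percent of all. The windows of Ccl12 and Ccl3 hold none of these letters. The promoters below, shown because Cxcl10, C3ar1 and Cd68 hold more than 1 match and Lcn2 had the second largest rise of all genes, run 5′ to 3′ on the gene's own strand and end at the base before the start, with matches in capitals. Cxcl10 (chr5:92348890-92349139, minus strand) holds the interferon response element, the NF-kB and the AP-1 motif in that order. Lcn2 (chr2:32387740-32387989, minus strand) holds a C/EBP motif, C3ar1 (chr6:122856158-122856407, minus strand) an AP-1 motif and, on the other strand, an NF-kB motif, and Cd68 (chr11:69666171-69666420, minus strand) an AP-1, a C/EBP and a further AP-1 motif. A match is a description of letters and not a site in use.
Cxcl10: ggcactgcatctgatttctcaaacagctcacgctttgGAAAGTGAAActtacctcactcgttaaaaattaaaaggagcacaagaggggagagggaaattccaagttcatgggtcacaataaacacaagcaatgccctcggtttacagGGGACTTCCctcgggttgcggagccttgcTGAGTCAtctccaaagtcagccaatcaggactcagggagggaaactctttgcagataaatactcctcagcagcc
Lcn2: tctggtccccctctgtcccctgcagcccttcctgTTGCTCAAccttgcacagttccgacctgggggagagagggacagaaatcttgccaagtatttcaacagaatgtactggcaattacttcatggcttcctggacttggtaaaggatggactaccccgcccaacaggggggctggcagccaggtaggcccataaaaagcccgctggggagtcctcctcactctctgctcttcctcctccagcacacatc
C3ar1: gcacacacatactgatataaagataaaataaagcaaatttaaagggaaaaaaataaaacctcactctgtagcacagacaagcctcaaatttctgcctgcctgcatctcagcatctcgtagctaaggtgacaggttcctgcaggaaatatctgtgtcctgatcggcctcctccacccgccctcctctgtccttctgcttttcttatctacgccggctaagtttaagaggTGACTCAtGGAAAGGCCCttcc
Cd68: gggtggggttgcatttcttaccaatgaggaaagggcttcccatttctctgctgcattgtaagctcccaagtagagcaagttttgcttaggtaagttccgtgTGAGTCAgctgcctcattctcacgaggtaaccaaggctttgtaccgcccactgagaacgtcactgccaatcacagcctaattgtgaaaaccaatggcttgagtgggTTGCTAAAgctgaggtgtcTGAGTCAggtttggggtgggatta

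Among genes of cytokine signalling, some receptors and signal carriers rose. Osmr, the receptor subunit for oncostatin M, read 5.87, 6.38, 6.73 and 5.94 in the stroke arrays, against 4.84, 4.88, 5.09 and 4.84 in the naive arrays, and rose 2.49-fold without overlap (1.32 ± 0.16, adjusted p = 0.00012). Il13ra1, a receptor chain for interleukins 4 and 13, rose by 0.77 ± 0.13. Socs3, the feedback inhibitor of gp130 signalling, averaged 6.95 ± 0.12 after stroke and 6.33 ± 0.12 in naive mice (0.61 ± 0.11, adjusted p = 0.0050). A second Socs3 probe set changed by 0.02. Stat3, the transcription factor downstream of gp130, rose by 0.54 ± 0.10 (adjusted p = 0.0095), and Stat6, which acts below those interleukins, by 0.34 ± 0.07 in 4 of 8 fits. In all, 5 of 25 genes of the interleukin-6 family, JAK and STAT signalling rose and none fell (median 0.17). That is 20 percent, against 1.34 percent of all genes that rose. Il6 itself, at 3.07, 2.99, 3.28 and 2.95 after stroke, against 3.05, 2.24, 2.51 and 2.62 in naive mice, did not pass (adjusted p = 0.16). Of 30 inflammatory cytokines and their receptors 2 rose (6.67 percent). These were Tnfrsf1a, the main TNF receptor (0.57 ± 0.10, adjusted p = 0.0072), and Il1rap, the co-receptor of the interleukin-1 receptor (0.39 ± 0.09, adjusted p = 0.041). Of the 30, 1 passed without the first naive array and 3 without both first arrays. Il1a had a change of 0.74 ± 0.20 (adjusted p = 0.062). None of 21 NF-kB subunits, inhibitors and feedback genes passed (median 0.10), with Nfkb2 nearest at 0.33 (adjusted p = 0.063).

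Receptors of myeloid cells for damage, immune complexes and complement rose in several families. Msr1, a scavenger receptor of macrophages, read 4.21, 4.44, 5.10 and 4.57 after stroke, against 3.40, 3.46, 3.22 and 3.48 in naive mice, 2.28-fold higher without overlap (adjusted p = 9.0e-05). Ptx3, a secreted pentraxin that binds microbes and apoptotic cells, read 5.06, 6.77, 6.70 and 5.91 after stroke, against 4.61, 4.82, 4.67 and 4.61 in naive mice. It rose 2.70-fold (1.43 ± 0.26, adjusted p = 0.0076), with the first stroke array far below the other stroke arrays yet above every naive one. Myd88, the adaptor of most toll-like receptors, rose by 0.68 ± 0.09 (adjusted p = 0.00051) in all 8 fits. Clec5a (0.88 ± 0.18), Tlr7 (0.56 ± 0.13), Tlr1 (0.56 ± 0.14) and Cd36 (0.42 ± 0.10) rose with passes in 4, 2, 1 and 1 of the 8 fits. Of 29 pattern recognition receptors and adaptors, 7 rose and none fell (24.1 percent, against 1.34 percent of all genes that rose). Their median was 0.27, with 19 positive and 10 negative changes, and lay between -0.02 and 0.33 over 27 settings. The -0.02 came from the setting without the dimmest 33.3 percent of genes. It kept 11 of the 29, with 6 negative and 5 positive changes, so the brighter members as a set did not lean up. The lowest median in the other settings was 0.16, without the third stroke array. Of the 29, 10 passed without both first arrays. The count was 4, 3 and 3 without the second, the third and the fourth stroke array, 3, 4, 4 and 4 without each naive array from the first to the fourth, and 4 without the second naive array labelled TNF knockout. The 27 settings, used for other lists too, include the main fit. Several of them changed only the estimate of the spread or left out an array labelled TNF knockout, and these could not move a median.

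Lilr4b, an immunoglobulin-like receptor of myeloid cells, read 4.17, 5.45, 5.92 and 5.04 in the stroke arrays, against 3.39, 3.23, 3.21 and 3.29 in the naive arrays. It rose 3.64-fold (adjusted p = 0.00014) without overlap, and its near-copy Lilrb4a, an inhibitory receptor, rose 2.28-fold (1.19 ± 0.18, adjusted p = 0.0017). The probe sets of these paralogues may read each other's transcripts, so the pair cannot be counted as separate findings. Among receptors for antibodies, Fcgr4 (0.72 ± 0.15), the inhibitory Fcgr2b (0.63 ± 0.10), the high-affinity Fcgr1 (0.55 ± 0.10) and their shared signalling chain Fcer1g (0.47 ± 0.09) rose. Vav1, an exchange factor downstream of these receptors, rose by 0.63 ± 0.14. That makes 7 of 24 Fc receptor and ITAM signalling genes (29.2 percent, against 1.34 percent of all genes that rose). Their median was 0.23, none was lower and 6 passed without both first arrays. The count fell to 4 without the third stroke array or without the first naive array.

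The receptors for the complement fragments C3a and C5a had the smallest p among the complement genes. C3ar1 read 6.98, 7.21, 7.34 and 7.17 after stroke, against 5.49, 6.11, 5.95 and 5.83 in naive mice (1.33 ± 0.16, adjusted p = 0.00011). C5ar1 read 5.85, 6.26, 6.69 and 6.03 after stroke, against 4.88, 4.55, 4.75 and 5.25 in naive mice (1.35 ± 0.17, adjusted p = 0.00014). Neither overlapped, at 2.51-fold and 2.55-fold. Itgb2, the beta chain of complement receptor 3 and of other leukocyte integrins, rose by 0.75 ± 0.11 (adjusted p = 0.00062). C4b, a component of the classical pathway, rose by 0.61 ± 0.10, and C1qc, a chain of its first component, by 0.43 ± 0.11 (adjusted p = 0.0497), in 2 of 8 fits. C1qb was 0.48 higher without passing (adjusted p = 0.058). Of 24 complement genes 5 rose and none fell (20.8 percent, against 1.34 percent of all genes that rose), with a median of 0.10. The count was 8 without the first stroke array, 4 without the first naive array and 5 without both first arrays.

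Lysosomal and leukocyte structural genes rose beside these receptors. Cd68, a lysosomal membrane protein used as a marker of phagocytic microglia and macrophages, read 7.75, 7.82, 7.91 and 8.03 after stroke, against 6.87, 6.69, 6.75 and 6.86 in naive mice. Its spread was small in both groups, and its 2.12-fold rise had the second smallest p of all genes (1.08 ± 0.08, adjusted p = 1.9e-07). Ctsc, the protease that activates granule serine proteases, rose 2.58-fold (7.70 ± 0.43 after stroke, 6.33 ± 0.17 in naive mice, adjusted p = 0.00012). Lyz2, lysozyme of myeloid cells, rose 2.21-fold (adjusted p = 0.0016). The cathepsins Ctsz (0.49 ± 0.09) and Ctss (0.43 ± 0.10) and the membrane protein Lamp2 (0.37 ± 0.08) rose less, and Ctss and Lamp2 passed in 1 and 2 of 8 fits. Of 33 lysosomal genes 6 rose and none fell (18.2 percent, against 1.34 percent of all genes that rose). Of the 33 changes 28 were positive (median 0.19), as were 48.3 percent of changes over all genes. Of 30 integrins and actin regulators of leukocytes 5 rose (16.7 percent; median 0.12), among them Msn, which links membrane to actin (0.82 ± 0.15), Lcp1, which bundles actin (0.82 ± 0.16), and Plek, a substrate of protein kinase C (0.64 ± 0.12).

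Markers of activated microglia and macrophages rose in 8 of 22 genes (36.4 percent), with a median of 0.32. Over all genes 1.34 percent rose and 0.336 percent fell. Of the 22, 9 passed without both first arrays and 6 without the first naive array. Gpr84, a receptor for medium-chain fatty acids, read 6.91, 7.36, 7.62 and 7.07 after stroke, against 5.76, 4.87, 5.39 and 5.82 in naive mice, a 3.43-fold rise without overlap (adjusted p = 1.8e-05). Ch25h, which makes 25-hydroxycholesterol, rose 2.20-fold (adjusted p = 0.00015), and Plin2, which coats lipid droplets, by 0.60 ± 0.11. Markers of microglia at rest did not move one way: of 15, Fcrls rose (7.38 ± 0.41 after stroke, 6.49 ± 0.12 in naive mice, adjusted p = 0.0083) and Siglech fell (5.69 ± 0.23 after stroke, 6.17 ± 0.18 in naive mice, adjusted p = 0.037). Siglech did not pass without both first arrays (adjusted p = 0.12). Aif1, a general marker of microglia, changed by 0.08 (adjusted p = 0.66) and P2ry12 by -0.05 (adjusted p = 0.88), neither past the threshold.

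Among blood-borne cells, 2 of 18 markers of neutrophils and monocytes rose (11.1 percent, against 1.34 percent of all genes), Lcn2 and F13a1. Neither is restricted to such cells, since reactive astrocytes also make Lcn2 and macrophages F13a1. F13a1, a chain of a clotting factor, rose by 0.67 ± 0.11. The neutrophil markers S100a8 (0.40, adjusted p = 0.18), S100a9 (-0.01, adjusted p = 0.96), Ly6g (-0.12, adjusted p = 0.65) and Cxcr2 (0.70, adjusted p = 0.11) did not pass. The mean level of the 18 markers was 4.25 to 4.68 in the stroke arrays, against 4.07 to 4.22 in the naive arrays. That mean includes Lcn2 and F13a1, and of the 18 changes 11 were positive and 7 negative (median 0.20). The part of such cells in the rises above was not tested. None of 14 lymphocyte markers passed (median -0.08), with Cd3d at 0.24 (adjusted p = 0.31).

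Astrocyte genes were read in separate lists for the reactive state and for the cell type in general. Of the reactive list, Lcn2, Serpina3n, Cxcl10 and Cd44 were also counted in other lists. Of 24 genes of reactive astrocytes 11 rose (45.8 percent, against 1.34 percent of all genes that rose) and none fell. Their median was 0.53, between 0.40 and 0.73 over 27 settings. Of the 24, 13 passed without both first arrays and 9 without the first naive array. Lcn2, which binds iron-carrying siderophores, read 6.68, 7.29, 8.44 and 7.01 after stroke, against 4.45, 4.10, 4.77 and 4.09 in naive mice. It rose 8.01-fold without overlap (3.0 ± 0.31, adjusted p = 3.6e-05). Serpina3n, an extracellular protease inhibitor, read 8.74, 9.62, 9.96 and 9.42 after stroke, against 7.41, 7.50, 7.64 and 7.65 in naive mice, a 3.69-fold rise without overlap (adjusted p = 5.0e-05). The intermediate filament genes Vim (9.27 ± 0.19 after stroke, 8.49 ± 0.05 in naive mice, adjusted p = 9.0e-05) and Gfap (9.03 ± 0.29 after stroke, 8.31 ± 0.16 in naive mice, adjusted p = 0.015) rose 1.71-fold and 1.65-fold. Vim passed in all 8 fits and Gfap in 5. S1pr3, a sphingosine phosphate receptor (0.74 ± 0.10), Tm4sf1, a membrane protein also of endothelium (0.82 ± 0.15), and Tgm1, a transglutaminase (1.02 ± 0.17), rose in all 8 fits. Of 16 genes that mark astrocytes in general only Gjb6, the gap junction protein connexin 30, rose (0.57 ± 0.11, adjusted p = 0.012), and the median of the 16 was 0.06. Aqp4, the water channel of astrocyte end-feet, changed by 0.12 and Aldh1l1 by 0.07, neither past the threshold. Outside the lists, Slc14a1, an astrocyte urea transporter, rose by 0.74 ± 0.13 and Etnppl, a phospholyase found in astrocytes, by 0.74 ± 0.14.

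Genes of matrix and its proteases rose in 6 of 34 cases (17.6 percent, against 1.34 percent of all genes that rose), with a median of 0.24. The count was 13 without the first stroke array, 3 without the third stroke array, 4 without the first naive array and 10 without both first arrays. Besides Serpina3n these were Anxa1 (0.85 ± 0.15, adjusted p = 0.0046) and Anxa2 (0.69 ± 0.11, adjusted p = 0.0017), calcium-dependent membrane-binding proteins, Adamts1, a secreted metalloprotease (0.61 ± 0.12), Cd44, the hyaluronan receptor (0.60 ± 0.13), and Adam17, which sheds TNF from the cell surface (0.34 ± 0.09, in 1 of 8 fits). Timp1, an inhibitor of metalloproteases, read 5.63, 6.01, 6.81 and 5.58 after stroke, against 5.52, 4.74, 5.39 and 4.86 in naive mice. All its stroke readings lay above the naive ones, but the spread was wide and it did not pass (0.88 ± 0.23, adjusted p = 0.062). A2m, a broad protease inhibitor of plasma and outside the list, rose by 0.99 ± 0.13 (adjusted p = 0.00040).

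**Figure D4:**
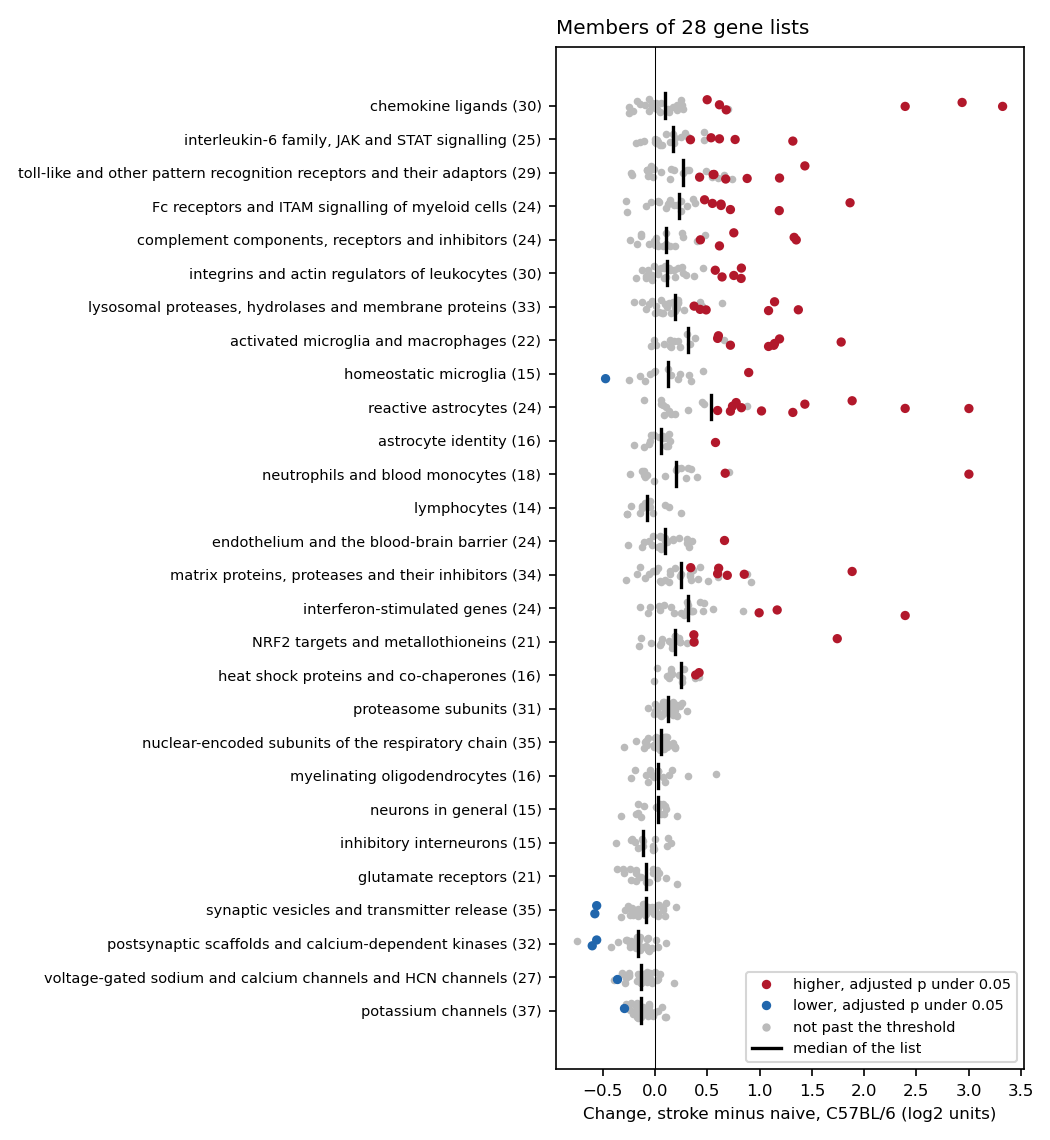
Change (stroke minus naive in C57BL/6, log2 units, horizontal axis) of each member of 28 gene lists, with the number of members in brackets and a black bar at the list's median (vertical scatter within a list carries no value). The reactive astrocyte list has the highest median, 0.53, and the postsynaptic list the lowest, -0.16.

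Defences against haem, oxidants and unfolded proteins rose in a few genes each, where 1.34 percent of all genes rose. Hmox1, which breaks down haem and is a target of the factor NRF2, read 6.83, 7.58, 8.08 and 7.4 after stroke, against 5.25, 5.65, 6.22 and 5.80 in naive mice. It rose 3.35-fold without overlap (1.74 ± 0.23, adjusted p = 0.00026). Cp, the copper enzyme that oxidises iron for export, rose by 0.47 ± 0.09, so that, with Hmox1 and Lcn2, 3 of 22 iron and haem genes rose (13.6 percent; median 0.05). Nfe2l2, which encodes NRF2, and Txnrd1, a thioredoxin reductase, rose by 0.37 ± 0.08 each, so that 3 of 21 NRF2 targets and metallothioneins rose (14.3 percent; median 0.19). Hmox1 aside, these passed in 3 (Nfe2l2) and 4 (Txnrd1) of 8 fits, and 1 of the 21 passed without the second or the third stroke array or without the second naive array. Mt1 was 0.37 higher without passing (adjusted p = 0.16). Of 16 heat shock proteins and co-chaperones 2 rose, Dnajb1 (0.42 ± 0.08, adjusted p = 0.011) and Dnajb4 (0.39 ± 0.08, adjusted p = 0.024), partners of HSP70, and 15 of 16 changes were positive (median 0.24). Hspa1a, the inducible HSP70, was 0.41 ± 0.11 higher (adjusted p = 0.064). None of 31 proteasome subunits passed, although 27 changes were positive and 7 subunits had all stroke arrays above all naive arrays (median 0.13), as 5.03 percent of all genes had. None of 21 genes of the unfolded protein response passed (median 0.03), and 1 of 23 genes of the hypoxia response and glycolysis did, Hk2, a hexokinase (0.46 ± 0.12, in 2 of 8 fits; adjusted p = 0.053 without both first arrays).

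Interferon-stimulated genes, with 21 of 24 changes positive (median 0.31), rose in 3 cases (12.5 percent, against 1.34 percent of all genes). Besides Cxcl10 these were Ifitm3, which blocks virus entry (8.23 ± 0.38 after stroke, 7.07 ± 0.30 in naive mice, 2.25-fold, adjusted p = 0.00062), and Ifit1, which binds viral RNA (0.99 ± 0.24, adjusted p = 0.037). Ifit1 passed in 1 of 8 fits. Outside the list, Irgm1, an interferon-induced GTPase (0.84 ± 0.16), Ifitm1 (0.76 ± 0.15) and Sting1, the adaptor of cytosolic DNA sensing (0.68 ± 0.09, adjusted p = 0.00040), rose. All stroke arrays exceeded all naive arrays in 10 of the 24 genes, as in 5.03 percent of all genes. Of 15 antigen presentation genes H2-Q4, a class I gene whose probe set may also read close relatives, rose by 0.54 ± 0.12 in 2 of 8 fits.

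Further large rises lay outside the lists. Srgn, the proteoglycan of secretory granules, read 8.17, 8.82, 9.53 and 8.55 after stroke, against 7.43, 7.57, 7.58 and 7.52 in naive mice (1.24 ± 0.19, adjusted p = 0.0015). Cd53, a tetraspanin of leukocytes, read 7.08, 7.87, 8.02 and 7.98 after stroke, against 6.60, 6.65, 6.50 and 6.64 in naive mice (1.14 ± 0.15, adjusted p = 0.00022). Both were without overlap. Ctla2a, which resembles the propeptide of cathepsins, rose 2.42-fold (adjusted p = 0.0093), with 1 naive array at 4.43 against a lowest stroke reading of 4.40. The membrane-spanning genes Ms4a6d (1.02 ± 0.20) and Ms4a6c (0.98 ± 0.16), close relatives of each other, rose, Ms4a6d in 6 of 8 fits. Pglyrp1, which binds peptidoglycan, rose by 0.80 ± 0.12 and Prg4, the lubricating proteoglycan of joints, by 0.94 ± 0.18. Anln, the actin-binding protein anillin, read 8.15, 8.11, 8.29 and 8.15 after stroke, against 7.41, 7.57, 7.53 and 7.47 in naive mice, a tight and complete separation (0.68 ± 0.08, adjusted p = 0.00014). Dab2, an endocytic adaptor, rose by 0.71 ± 0.11, while its second probe set changed by -0.11.

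Genes of vessels, myelin and most neurons gave few calls, where 1.34 percent of all genes rose and 0.336 percent fell. Of 24 endothelial and barrier genes Mfsd2a, the lipid transporter that keeps the barrier tight, rose (8.21, 7.77, 7.90 and 7.85 after stroke, against 7.12, 7.25, 7.19 and 7.55 in naive mice, adjusted p = 0.0059). Icam1, an adhesion molecule of inflamed endothelium, was 0.35 higher without passing (adjusted p = 0.13). None of 17 pericyte and fibroblast genes, 16 myelin and oligodendrocyte genes or 12 oligodendrocyte precursor genes passed. None of 15 general neuron genes, 16 genes of cortical and striatal neurons or 15 genes of inhibitory interneurons passed either. Their medians were 0.03, -0.03 and -0.12, and over 27 settings the first ran from -0.06 to 0.05, the second from -0.07 to 0.03 and the third from -0.13 to -0.05, which it reached without the first stroke array. Snap25 read 12.16 to 12.26 after stroke and 12.13 to 12.19 in naive mice. Tubb3, a neuronal tubulin, was the nearest to the threshold, at -0.33 ± 0.08 (adjusted p = 0.053).

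Among the decreases were genes of the synapse, with few calls in each list, where 0.336 percent of all genes fell. Slc30a3, which loads zinc into vesicles of cortical glutamate neurons, read 8.65, 8.58, 8.39 and 8.60 after stroke, against 9.0, 9.06, 9.26 and 9.21 in naive mice. It fell to 0.67 of the naive level (-0.58 ± 0.09, adjusted p = 0.0015) without overlap. Unc13a, which primes vesicles for fusion, read 8.21, 8.47, 8.23 and 8.30 after stroke, against 8.90, 9.03, 8.84 and 8.68 in naive mice (-0.56 ± 0.09, adjusted p = 0.0016). The least changed of its 3 probe sets stood at -0.23. Of 35 genes of vesicles and transmitter release these 2 fell and none rose (5.71 percent; median -0.09). Of 32 postsynaptic scaffolds and calcium-dependent kinases Camkk2 and Shank1 fell (6.25 percent), while 29 changes were negative (median -0.16, between -0.19 and -0.14 over 27 settings). All stroke arrays lay below all naive arrays in 11 of the 32, as for 3.23 percent of all genes. Camkk2, a kinase activated by calcium and calmodulin, read 8.14, 8.12, 7.87 and 7.89 after stroke, against 8.66, 8.55, 8.50 and 8.72 in naive mice (-0.60 ± 0.09, adjusted p = 0.0018). Shank1, a scaffold of excitatory synapses, had a change of -0.56 ± 0.14 with adjusted p = 0.049, and passed in 0 of 8 fits.

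Most ion channel genes had negative changes and few passed. Over all genes 51.4 percent of changes were negative and 0.336 percent fell past the threshold. Of 37 potassium channel genes 33 changes were negative (median -0.14, between -0.18 and -0.11 over 27 settings) and Kcnj4, an inward rectifier of forebrain neurons, fell (-0.30 ± 0.07, adjusted p = 0.037). Of 27 sodium, calcium and HCN channel genes 22 changes were negative (median -0.14) and Cacna1a, the pore of P/Q-type calcium channels, fell (8.64, 8.73, 8.61 and 8.59 after stroke, against 9.17, 9.12, 8.94 and 8.81 in naive mice, adjusted p = 0.038). Of 17 GABA and glycine receptor genes Gabrd, the extrasynaptic delta subunit, fell (-0.39 ± 0.09, adjusted p = 0.037). The 17 as a list did not lean down, with 10 positive and 7 negative changes (median 0.07). None of 21 glutamate receptor genes passed (median -0.09), with Grin2a, an NMDA receptor subunit, at -0.31 ± 0.09 (adjusted p = 0.086). Kcnj4, Cacna1a and Gabrd passed in 2, 2 and 1 of 8 fits. Without the first naive array, the one high in cerebellar transcripts, their adjusted p was 0.099, 0.12 and 0.058. Without both first arrays it was 0.072, 0.10 and 0.049, so that only Gabrd of the 3 passed. Other synaptic genes that fell were Rims3 (-0.41 ± 0.10), Cadps2, a priming factor of dense-core vesicles (-0.40 ± 0.08), Igsf21, a synaptic adhesion protein (-0.40 ± 0.09), and Slc8a2, a sodium-calcium exchanger (-0.37 ± 0.09).

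Immediate early genes moved in both directions. Atf3 (0.69 ± 0.14, adjusted p = 0.013), Myc (0.64 ± 0.13, adjusted p = 0.016) and Jun (0.51 ± 0.10, adjusted p = 0.011), stress-responsive transcription factors, rose. Npas4, which depends on calcium entry into active neurons, read 5.81, 6.15, 6.03 and 6.06 after stroke, against 6.57, 6.67, 6.74 and 6.59 in naive mice. It fell without overlap (-0.63 ± 0.14, adjusted p = 0.026) but passed in only 3 of 8 fits. Arc, a synaptic activity gene, read 7.75, 7.96, 7.80 and 7.48 after stroke, against 8.43, 8.45, 9.02 and 8.07 in naive mice, below in every array yet short of the threshold (-0.74 ± 0.24, adjusted p = 0.13). Egr1 (-0.56, adjusted p = 0.081) and Fos (-0.05, adjusted p = 0.94) did not pass. Over the 26 genes 3 rose and 1 fell, where 1.34 percent of all genes rose and 0.336 percent fell. Their median was -0.07, between -0.13 and 0.0012 over 27 settings. Jun passed in all 8 fits, Myc in 6 and Atf3 in 5. Of the 26, 1 passed without the third stroke array, 1 without the first naive array and 4 without both first arrays, where Npas4 did not (adjusted p = 0.068).

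The largest decrease past the threshold was that of Pltp, which moves phospholipid between lipoproteins. It read 8.54, 8.80, 8.53 and 9.10 after stroke, against 9.21, 9.24, 9.55 and 9.54 in naive mice, and fell to 0.641 of the naive level (-0.64 ± 0.12, adjusted p = 0.0078) in all 8 fits. Of 23 genes of lipid transport 4 rose, Ch25h, Plin2, Cd36 and Apod, a glial lipid carrier (0.41 ± 0.10, in 2 of 8 fits), and Pltp alone fell. The 5 calls became 3 without the third or the fourth stroke array, without any 1 of the naive arrays, or without the third stroke array or the second or the third naive array labelled TNF knockout. None of 18 genes of cholesterol synthesis passed. Nr1d1, a repressor of the circadian clock, fell by 0.34 (adjusted p = 0.045, in 1 of 8 fits), the only call among 15 clock genes. Fkbp5, a glucocorticoid-induced co-chaperone (0.44 ± 0.11), and Sult1a1, a sulphotransferase (0.65 ± 0.13), rose with Lcn2 among 15 glucocorticoid-responsive genes, in 2 and 6 of 8 fits. Of the 15, 1 passed without the third stroke array, 1 without the first naive array and 2 without both first arrays. Pla2g4a, which frees arachidonic acid, rose by 0.52 ± 0.11 in 3 of 8 fits (adjusted p = 0.060 without the first naive array), the only call among 19 genes of prostaglandin and leukotriene synthesis. Ccng1, a p53 target, was the only 1 of 18 cell death genes to rise (0.39 ± 0.10, in 1 of 8 fits), and Dusp3, a MAP kinase phosphatase, the only 1 of 25 to fall (-0.35 ± 0.08, in 1 of 8 fits). None of 35 respiratory chain genes, 24 ribosomal protein genes, 24 cell cycle genes, 24 neuropeptide genes or 16 purine receptor genes passed. Over all genes 1.34 percent rose and 0.336 percent fell, so single calls in lists of this size say little about a list.

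The stroke change in C57BL/6 brain was last set beside that of the arrays labelled TNF knockout, which shares no array with it. Of the 334 genes, 233 of the 267 that rose and 55 of the 67 that fell had a change of the same sign under the other label, as did 11209 of all 19938 genes. All 24 genes with at least a 2-fold rise did, and 22 of them passed the threshold there as well. That threshold was passed by 0.642 percent of all genes under the other label. Median changes were 1.32 in C57BL/6 and 1.14 under the other label for the 24, 0.68 and 0.43 for the 65, and 0.42 and 0.10 for the 178. The genes were chosen by their values in C57BL/6, so these medians do not compare the labels on equal terms. The difference of the changes, tested directly, passed for 0 of 19938 genes (0 percent; limma, smallest adjusted p = 0.0806), with 1480 genes at an unadjusted p under 0.05. Ccl3 rose by 2.94 ± 0.31 in C57BL/6 and by 3.71 ± 0.31 under the other label (adjusted p of the difference 0.71). Gpr84 rose by 1.78 ± 0.17 in C57BL/6 and by 1.06 ± 0.17 under the other label (adjusted p of the difference 0.56), and Pglyrp1 had changes of 0.80 ± 0.12 in C57BL/6 and 0.08 ± 0.12 under the other label (adjusted p of the difference 0.41). Npas4 had changes of -0.63 ± 0.14 in C57BL/6 and 0.08 ± 0.14 under the other label (adjusted p of the difference 0.47). None of these differences passed, and the median SE of a difference, 0.141, was larger than that of a change, 0.0994, so a miss does not show that the changes were alike.

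**Figure D5:**
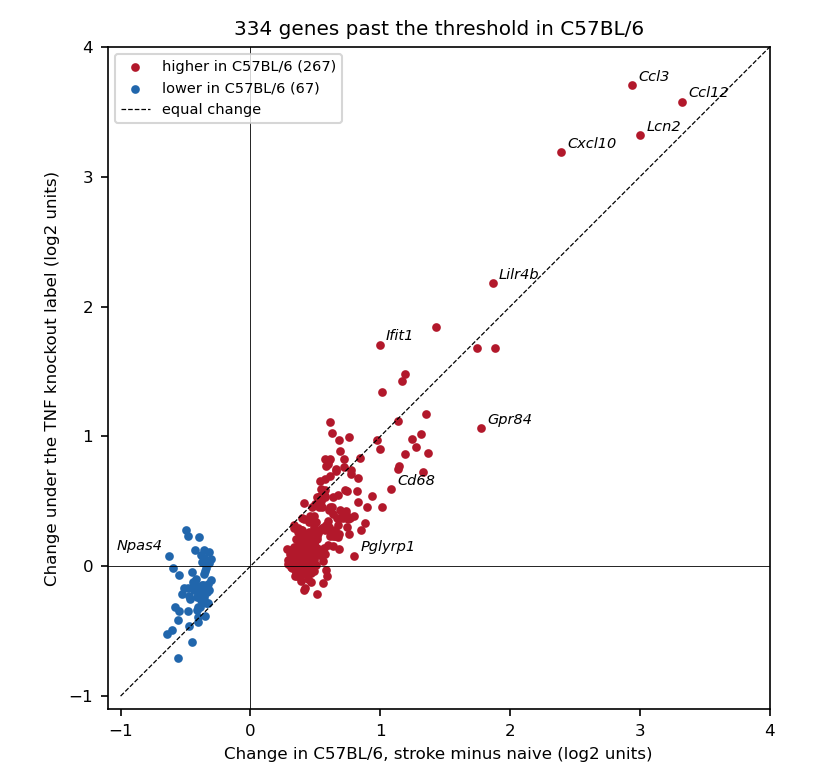
Change in C57BL/6 brain (stroke minus naive, log2 units, horizontal axis) against the change in the arrays labelled TNF knockout (log2 units, vertical axis) for the 334 genes past the threshold in C57BL/6, with the line of equal change dashed. The genes were chosen by the horizontal values, and the 24 largest rises all have positive changes on the vertical axis.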

How the data were processed

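RNA of brain tissue was read on Affymetrix Mouse Gene 1.0 ST arrays. Each deposited value is a probe set's log2 summary, already normalised between arrays by the authors. GCOS, GCRMA, Partek and RMA are listed, with neither version nor step, per the submitters' processing notes. Of 28944 probe sets, 21789 had 1 gene symbol in GEO's platform annotation, 1621 several and 5534 none. Probe sets with 1 symbol gave 19938 genes, and for 999 genes with more than 1 the probe set with the highest mean was used.

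All 16 arrays entered 1 linear model of the 4 groups on the log2 scale (lmFit and eBayes of limma 3.58.1, run in R 4.3.3; two-sided, Benjamini-Hochberg over 19938 genes, threshold 0.05). The number of arrays limits the precision. In simulated data for this comparison, with 200 of 19938 genes changed, 68.5 percent of changes of 0.5, 99.2 percent of changes of 1 and 100 percent of changes of 2 were recovered, and 5 percent of calls were false. The simulated spread was drawn for each gene on its own, with no differences shared by many genes of an array. The real arrays held such regional differences, so these shares need not hold for the calls made here. Whether replicate numbers pair the arrays is not known. Deviations of same-numbered C57BL/6 stroke and naive arrays from their group means correlated at -0.07 to 0.18.

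The members and the 52 gene lists were chosen with earlier results of these data known. Some genes belong to several lists, so the counts of different lists are not separate findings. Genes named are Tnf, genes past the threshold with at least a 2-fold change, the 40 largest further increases and 40 largest decreases with a known role, list members past the threshold with up to 3 next by p, and defining cell markers. Regional transcripts were added after the values were seen. Alternatives changed the normalisation, filter on dim genes, probe set rule, variance model, array weights, samples in the fit, replicate block, threshold and each array.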

Additional observations from a re-analysis of the deposited data

Results flagged for a closer look

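Of 314 groups of 4 arrays examined, 17 held an array far from the other 3 by Dixon's criterion, and chance gives about 1 in 20. Among genes that rose, Osmr read 5.09 in the third naive array (others 4.84 to 4.88), Ctla2a 4.43 in the second naive array (3.30 to 3.44) and S1pr3 5.68 in the second naive array (5.84 to 5.86). Lilrb4a read 6.64 in the third stroke array (5.72 to 5.74) and C1qc 8.51 in the fourth stroke array (8.34 to 8.36). The first stroke array was low for Cd53 at 7.08 (7.87 to 8.02), Il13ra1 at 6.02 (6.60 to 6.64) and Tlr1 at 3.99 (4.67 to 4.75). Ctss read 8.78 in the third naive array (9.05 to 9.09) and Dnajb1 7.63 in the first naive array (7.74 to 7.76).

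Among genes that fell, Shank1 read 8.29 in the first stroke array (8.44 to 8.46), Rpe65 3.67 in the fourth stroke array (3.86 to 3.89), Olfr531 3.34 in the third stroke array (3.85 to 3.89) and Slc8a2 8.72 in the third naive array (8.84 to 8.86). Tnf, which did not pass, read 5.28 in the second stroke array (5.64 to 5.68). The mean of 9 midbrain dopamine neuron markers was 5.84 in the second stroke array (6.42 to 6.51). The mean of 17 cerebellar markers was 7.35 in the first naive array (6.32 to 6.37).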

How the results depend on the processing

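The 334 calls became 536 without the dimmest 33.3 percent of genes, 511 with a trended variance, 98 with only the 8 C57BL/6 arrays, 76 at an adjusted p of 0.01 and 107 to 639 when 1 array was left out. With the replicate block, where it is not known whether the numbers pair the arrays, there were 559. Quantile normalisation gave 308, median centring 282, array weights 311, averaging the probe sets of each gene 330 and a robust variance 334. The difference of the stroke changes gave 0 calls, 1 with array weights, 1 with the replicate block and 0 to 3 when 1 array was left out. No change of a named gene reversed sign in these alternatives while past the threshold, and the cause of the moved counts was not tested. Dim genes lack detection values, which limits what can be said of them.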
